A study of Mus musculus with 10 samples.

Results

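Restriction factors are proteins that block single steps of viral replication inside the infected cell. The set described here is defined by gene symbol, and was drawn up with earlier results of these data known: Rsad2, Cmpk2, Bst2, Ifitm1, Ifitm2, Ifitm3, Ifitm6 and Zc3hav1, which are 8 of the 10 named genes and 8 of the 16936 protein-coding genes in the deposited table. The other named genes, Mx1 and Mx2, were not analysed here. RNA came from mouse bone marrow-derived macrophages, which are cells grown out of marrow, here with GM-CSF (50 ng/mL) over 7 days. The series holds 10 samples: 5 were left untreated and 5 received PLG for 24 h. The design text names PLG as plasminogen of human origin, which is the inactive precursor of the protease plasmin. The labels name no strain, sex, age or genotype, no control preparation for the added protein and no link between replicates and animals or cultures. The p-values therefore refer to the spread among these 10 samples, and that spread may be technical.

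Most restriction factor genes are interferon-stimulated genes. Type I interferon binds its receptor, Ifnar1 with Ifnar2, the receptor's kinases Jak1 and Tyk2 are activated, and a factor complex with Stat2 and Irf9 binds the interferon-stimulated response element in the promoters of such genes. Bst2 (tetherin) holds budding virions at the cell surface, the IFITM proteins hinder fusion of viral with cellular membranes, Rsad2 (viperin) turns CTP into a chain terminator of viral RNA polymerases, Cmpk2 is a mitochondrial nucleotide kinase encoded beside Rsad2, and Zc3hav1 (the zinc finger antiviral protein) binds CpG-rich viral RNA and directs it to decay.

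The promoters of the members differ in the response element. RefSeq windows of 300 bases on GRCm38.p6, 250 before and 50 after the gene's start, were matched for 8 of 8 members. The core of the element, GAAANN followed by GAAA on either strand (TTTCNN followed by TTTC on the other), occurred in the windows of 4 members, Rsad2, Bst2, Ifitm2 and Ifitm3, and in 3.44% of all 32851 windows of this length. The windows below are those 4, followed by that of Cmpk2, the neighbour of Rsad2, and that of Ifitm6, the member that was lower with PLG. They are Rsad2 (chr12:26456403-26456702, minus strand), Bst2 (chr8:71537423-71537722, minus), Ifitm3 (chr7:141010695-141010994, minus), Ifitm2 (chr7:140955912-140956211, minus), Cmpk2 (chr12:26468965-26469264, plus) and Ifitm6 (chr7:141016843-141017142, minus). Each reads from 5′ to 3′ on the gene's strand, and capitals mark the matches to the core.
Rsad2: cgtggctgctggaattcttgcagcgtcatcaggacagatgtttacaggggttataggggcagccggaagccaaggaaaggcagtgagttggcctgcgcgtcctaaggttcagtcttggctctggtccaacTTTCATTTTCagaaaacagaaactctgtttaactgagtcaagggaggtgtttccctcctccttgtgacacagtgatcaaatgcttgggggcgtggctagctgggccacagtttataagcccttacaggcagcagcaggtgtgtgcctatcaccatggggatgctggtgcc
Bst2: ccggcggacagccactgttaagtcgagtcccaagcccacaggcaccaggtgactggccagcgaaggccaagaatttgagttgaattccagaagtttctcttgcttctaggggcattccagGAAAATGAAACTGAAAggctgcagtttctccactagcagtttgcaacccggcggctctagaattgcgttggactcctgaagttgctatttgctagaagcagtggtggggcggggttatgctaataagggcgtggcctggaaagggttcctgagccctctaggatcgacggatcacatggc
Ifitm3: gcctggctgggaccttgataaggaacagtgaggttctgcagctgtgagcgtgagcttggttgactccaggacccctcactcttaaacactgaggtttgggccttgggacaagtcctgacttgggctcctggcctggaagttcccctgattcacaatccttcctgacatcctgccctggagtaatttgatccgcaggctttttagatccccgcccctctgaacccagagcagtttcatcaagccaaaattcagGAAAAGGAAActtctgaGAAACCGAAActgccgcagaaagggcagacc
Ifitm2: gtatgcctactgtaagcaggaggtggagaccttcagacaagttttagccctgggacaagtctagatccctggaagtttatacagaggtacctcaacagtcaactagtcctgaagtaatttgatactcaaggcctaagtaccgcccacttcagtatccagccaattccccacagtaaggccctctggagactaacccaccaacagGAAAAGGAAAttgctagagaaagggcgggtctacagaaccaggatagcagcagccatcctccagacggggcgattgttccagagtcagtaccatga
Cmpk2: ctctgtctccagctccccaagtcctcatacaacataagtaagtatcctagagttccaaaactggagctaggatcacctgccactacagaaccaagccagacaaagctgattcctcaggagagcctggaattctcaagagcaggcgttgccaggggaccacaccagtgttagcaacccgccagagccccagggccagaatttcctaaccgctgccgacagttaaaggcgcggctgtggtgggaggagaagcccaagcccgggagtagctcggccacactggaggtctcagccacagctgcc
Ifitm6: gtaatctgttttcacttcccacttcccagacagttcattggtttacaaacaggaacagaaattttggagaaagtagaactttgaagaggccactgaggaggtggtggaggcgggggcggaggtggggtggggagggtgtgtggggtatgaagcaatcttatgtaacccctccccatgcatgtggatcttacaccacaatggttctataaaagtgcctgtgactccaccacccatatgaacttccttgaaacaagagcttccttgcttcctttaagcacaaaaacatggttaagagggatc

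In Rsad2 the match lay 120 to 111 bases before the start, on the opposite strand. Bst2 held a pair of matches that overlapped each other, at 130 to 121 and 124 to 115 bases before the start. Ifitm2 held 1 match at 46 to 37 bases before the start. In Ifitm3 both matches lay just inside the annotated gene, at bases 3 to 12 and 20 to 29. The letters TTCNNNGAA, a gamma-activated site, occurred in the windows of Bst2, Ifitm3 and Ifitm6 and in 8.30% of all windows; in Bst2 and Ifitm3 this match overlapped the response element. The kappa B letters, GGGNN followed by TTTCC on either strand, occurred in 0 of the 8 members' windows and in 1.63% of all windows, and TATAAA, on either strand, in those of Rsad2, Ifitm2 and Ifitm6 and in 13.6% of all. The Ifitm1 and Ifitm6 windows start from a RefSeq position 855 and 1032 bases from the 5′ end of the gene in the deposited table, and the others within 26 bases of it. Such matches describe letters and not binding, and windows without a match, as in Cmpk2, Ifitm1, Ifitm6 and Zc3hav1, say only that these letters are not there.

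With PLG, 7 of the 8 members rose and 1, Ifitm6, fell. All 8 passed the expression filter (at least 1 FPKM in 5 or more samples), and in all 8 the 5 PLG samples lay wholly on one side of the 5 untreated ones. The background to these counts is broad: of 9997 tested genes 60.4% passed the same test (limma on log2(FPKM + 1), Benjamini-Hochberg adjusted p under 0.05), 29.1% as higher and 31.3% as lower with PLG, and 47.2% had groups that did not overlap. The median log2 fold change was 1.26 over the members and -0.02 over all tested genes, and Rsad2, Cmpk2 and Bst2 ranked 35, 96 and 171 from the top of the 9997. Ifitm3 ranked 449, Ifitm1 888, Zc3hav1 1077 and Ifitm2 1309, and Ifitm6 ranked 454 from the bottom. In bulk RNA, a change in the number of cells that carry a transcript and a change in the amount per cell cannot be told apart.

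**Figure D1:**
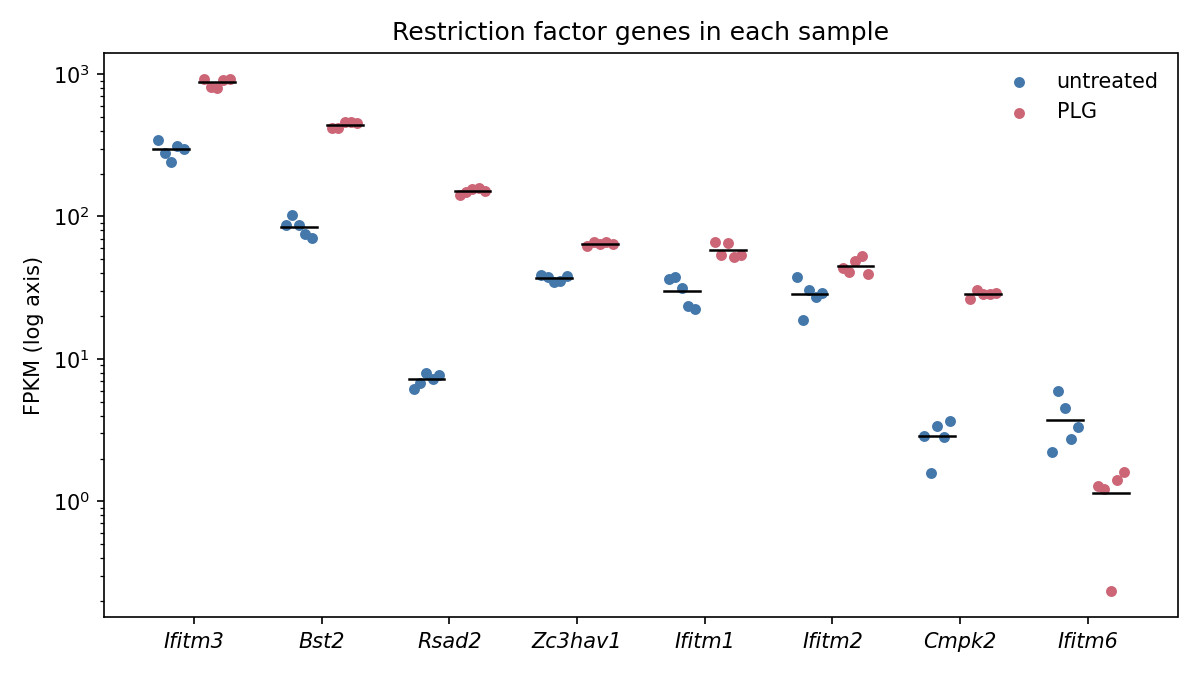
FPKM of the 8 members in each of the 5 untreated (blue) and 5 PLG (red) samples on a log axis, with black lines at the group means. The groups do not overlap for any of the members; Rsad2 moves furthest, and Ifitm6 is the 1 member with the PLG samples below, among them a sample at 0.234 FPKM.

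Macrophage markers were expressed, several cell type marker lists differed between the groups, and the libraries differed in the reads on 3 repeat-like gene models. All 11 macrophage and monocyte markers on the list averaged at least 1 FPKM over the 10 samples, with a summed level of 5951 to 7475 FPKM in untreated and 3256 to 3358 FPKM in PLG samples. Ccr2, on this list, was at 9.20 to 11.04 FPKM in untreated and at most at 0.307 FPKM in PLG samples. Markers of T and NK cells, B cells and fibroblasts summed to at most 1.16 FPKM in any sample. Neutrophil markers summed to 11.02 to 20.9 FPKM in untreated and 17.7 to 26.9 FPKM in PLG samples, with the defining Ly6g at most at 0.449 FPKM. Dendritic cell markers, mostly Itgax, summed to 280 to 312 FPKM in untreated and 186 to 201 FPKM in PLG samples. Single markers moved both ways. Flt3 was at 0.0560 to 0.175 FPKM in untreated and 1.64 to 2.83 FPKM in PLG samples. Zbtb46 was at 1.15 to 2.15 and 5.70 to 7.43 FPKM, and Dpp4 and Batf3 were higher too. Besides Itgax, Clec9a was lower, at 8.295 to 11.35 FPKM in untreated and 2.703 to 3.095 FPKM in PLG samples. Cd209a was also lower, at 1.383 to 4.598 and 0 to 0.071 FPKM, and the ranges of Xcr1 overlapped. Endothelial markers, mostly Vwf, summed to 28.2 to 31.4 FPKM in untreated and 13.2 to 15.9 FPKM in PLG samples. The part of these marker differences in the results that follow was not tested. The reads behind the values, recovered from the steps of the FPKM, came to 28.4 M to 64.2 M (M, mega) per sample. Of these, 0.130% to 5.92% fell on the gene models Gm10800, Gm10801 and Gm21738, with overlapping ranges in the groups. Without these models and with samples scaled to a common sum, an alternative chosen after seeing the data, the same count of members, 7, rose and 1 fell.

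Rsad2 and Cmpk2 are neighbours on chromosome 12 and had the largest changes in the set. Rsad2 (ENSMUSG00000020641.16, GRCm38, chromosome 12, 26442746 to 26456452, minus strand) and Cmpk2 (ENSMUSG00000020638.8, 26469204 to 26479837, plus strand) point away from each other, with 12751 bases between them. Rsad2 was at 6.19, 6.82, 7.95, 7.24 and 7.75 FPKM in untreated samples 1 to 5 and at 141, 149, 156, 159 and 151 FPKM in PLG samples 1 to 5. The lowest PLG sample thus lay far above the highest untreated one, and the spread within each group was small. The means were 7.19 ± 0.716 and 151 ± 7.00 FPKM (SD, n = 5 each), a ratio of 21 and 4.22 on the log2(FPKM + 1) scale (SE 0.0628, limma adjusted p = 7.84e-15). By level, the transcript moved from rank 4897 to rank 200 among the tested genes.

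Cmpk2 was at 2.88, 1.59, 3.41, 2.85 and 3.69 FPKM in untreated samples 1 to 5. With PLG it was at 26.5, 30.7, 28.4, 28.6 and 29.0 FPKM. Untreated 2 was the lowest and the PLG samples were tightly grouped. The means of 2.88 ± 0.808 and 28.6 ± 1.49 FPKM differed by a ratio of 9.94 (log2 fold change 2.96, SE 0.13, limma adjusted p = 2.17e-10). Untreated values rested on 214 to 631 reads and PLG values on 4466 to 8549.

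The neighbours did not rise by the same factor. The ratio of Rsad2 to Cmpk2 FPKM was 2.103 to 4.30 in untreated and 4.85 to 5.57 in PLG samples. The mean difference of their log2(FPKM + 1) values went from 1.10 ± 0.290 to 2.36 ± 0.0764 (SD, n = 5 each), a shift of 1.26 toward Rsad2 (two-sided exact permutation p = 0.00794, the smallest that 5 against 5 samples allow, and 0.0106 after Benjamini-Hochberg adjustment over 4 ratios). Untreated 2, which had the lowest Cmpk2, gave the highest untreated ratio. Ratios of this kind show unequal change and not that either gene was constant.

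Bst2, the tetherin gene, was abundant before treatment and rose further. On chromosome 8 (ENSMUSG00000046718.8, 71534255 to 71537456, minus strand), it was at 87.2, 101.6, 86.7, 75.4 and 70.8 FPKM in untreated samples 1 to 5. In PLG samples 1 to 5 it was at 416, 416, 457, 457 and 455 FPKM. Every PLG sample was thus above 4 times the highest untreated sample. The means were 84.4 ± 12 and 440.2 ± 22.0 FPKM (SD, n = 5 each), which differed by 2.38 on the log2 scale (SE 0.0825, limma adjusted p = 2.16e-11). The rank by level moved from 340 to 55. Bst2 also marks plasmacytoid dendritic cells in mouse. The 7 markers of that cell type in the table summed to 6.79 to 8.61 FPKM in untreated and 12.8 to 15.1 FPKM in PLG samples. Of these, Runx2 was at 4.06 to 4.77 FPKM in untreated and 6.99 to 8.04 FPKM in PLG samples. Tcf4 was at 1.43 to 1.86 and 2.37 to 2.72 FPKM, and Cox6a2 at 0 to 0.823 and 2.275 to 4.07 FPKM. The defining receptor Siglech was at 0.0830 to 0.219 FPKM in untreated and at 0 to 0.0180 FPKM in PLG samples. Ccr9 reached at most 0.344 FPKM in any sample, and Klk1 and Pacsin1 overlapped. Whether such cells add to the Bst2 level was not tested.

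Among the IFITM genes, Ifitm3 dominated in both groups and gained most. The 4 members lie within 63088 bases of chromosome 7 in the order Ifitm2, Ifitm1, Ifitm3 and Ifitm6, with Ifitm1 alone on the plus strand. Ifitm3 (ENSMUSG00000025492.6, 141009586 to 141010770), whose protein acts in endosomes, was at 347, 279, 242, 312 and 298 FPKM in untreated samples 1 to 5. In PLG samples 1 to 5 it was at 928, 809, 803, 905 and 927 FPKM. All PLG samples lay above 2 times the highest untreated one. The means were 295 ± 39.1 and 875 ± 62.9 FPKM (SD, n = 5 each), a difference of 1.57 on the log2 scale (SE 0.0857, limma adjusted p = 1.99e-09). It ranked 73 by level among tested genes in untreated and 23 in PLG samples.

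Ifitm1 and Ifitm2, whose proteins also hinder viral entry, rose by less. Ifitm1 (ENSMUSG00000025491.14, 140967221 to 140969825) was at 36.1, 37.4, 31.5, 23.6 and 22.5 FPKM in untreated samples 1 to 5 and at 66.6, 53.3, 64.6, 52.0 and 53.9 FPKM in PLG samples 1 to 5. Ifitm2 (ENSMUSG00000060591.9, 140954837 to 140955987) was at 37.7, 18.7, 30.4, 27.2 and 29.1 FPKM in untreated and at 43.6, 40.4, 48.6, 52.5 and 39.6 FPKM in PLG samples. Relative to their means, both genes varied more among untreated samples than Ifitm3, and for Ifitm2 the highest untreated and the lowest PLG sample nearly touched. The log2 fold changes were 0.94 for Ifitm1 (SE 0.135, limma adjusted p = 3.73e-05) and 0.66 for Ifitm2 (SE 0.143, limma adjusted p = 0.00125). The value of Ifitm2 is uncertain: of the 50-base words in its transcript, 48.5% also occur in transcripts of other genes in GENCODE M21, among them Gm45717, which overlaps it on the same strand. For Ifitm3 and Ifitm1 the share was 10.02% and 5.02%, and for Ifitm6 it was 0%.

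Ifitm6 went the other way at a far lower level. This family member (ENSMUSG00000059108.4, 141015699 to 141017924, minus strand), which lies 4928 bases from Ifitm3, was at 2.21, 6.0, 4.54, 2.73 and 3.31 FPKM in untreated samples 1 to 5. With PLG it was at 1.28, 1.22, 0.234, 1.41 and 1.61 FPKM. The groups did not overlap, but the lowest untreated and the highest PLG sample were close, and PLG 3 stood below the rest with 8 reads. The other samples held 45 to 176 reads. The means were 3.76 ± 1.52 and 1.15 ± 0.533 FPKM (SD, n = 5 each), a difference of -1.13 on the log2 scale (SE 0.229, limma adjusted p = 7.31e-04), and of -0.95 without PLG 3. In untreated samples its level and that of Cmpk2 overlapped.

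The IFITM pool shifted toward Ifitm3. Summed over the 4 genes, FPKM went from 358 ± 42.1 to 979 ± 63.1 (SD, n = 5 each), and the share of Ifitm3 in this sum from 82.4% ± 2.7 to 89.3% ± 1.1. The ratio of Ifitm2 to Ifitm3 FPKM was 0.0673 to 0.126 in untreated and 0.0427 to 0.0605 in PLG samples, a shift of -0.91 in the difference of log2(FPKM + 1) (two-sided exact permutation p = 0.00794, adjusted 0.0106). For Ifitm6 to Ifitm3 the shift was -2.70 with the same p-values. For Ifitm1 to Ifitm3 the ranges overlapped, 0.0754 to 0.134 in untreated and 0.0575 to 0.0805 in PLG samples, and the shift was -0.63 (two-sided exact permutation p = 0.0238, adjusted 0.0238). This last difference depended on single samples: it did not pass without PLG 2, PLG 4 or PLG 5, with shifts of -0.63, -0.58 and -0.58 and an adjusted p = 0.0556 in each exact test.

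**Figure D2:**
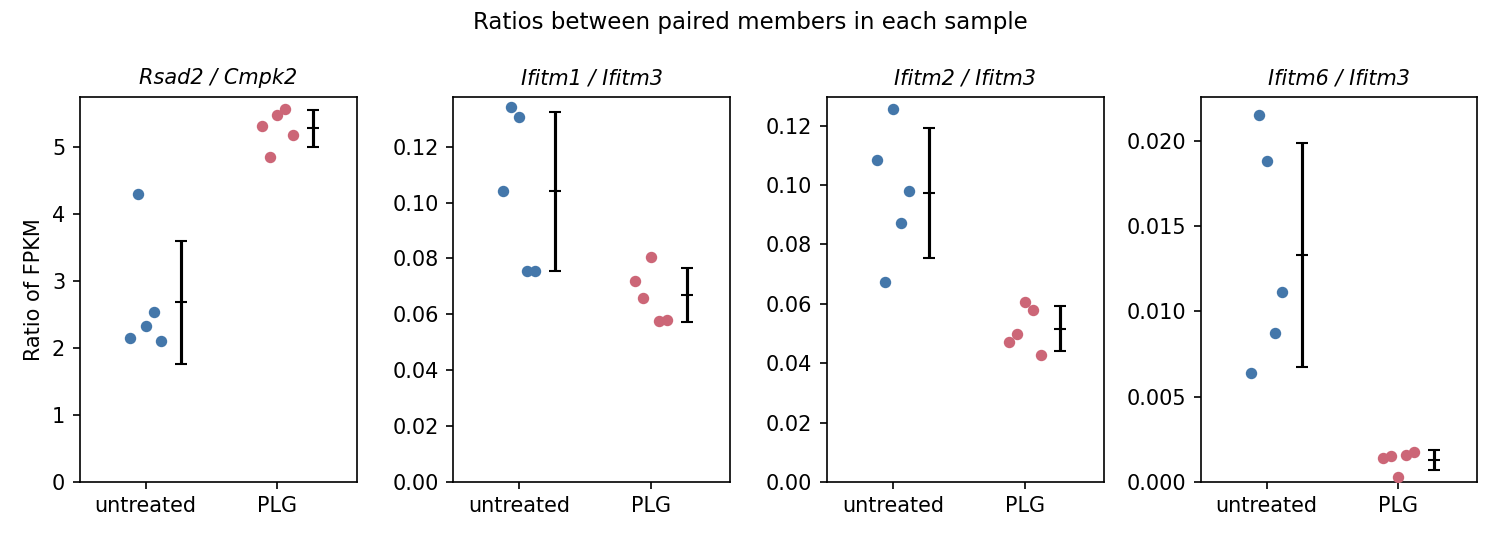
FPKM of one member divided by that of another in each sample, for Rsad2 over Cmpk2 and for Ifitm1, Ifitm2 and Ifitm6 over Ifitm3; bars beside the points are means ± SD of 5 samples per group. The Rsad2 to Cmpk2 ratio is higher in all PLG samples, the Ifitm2 and Ifitm6 ratios are lower in all PLG samples, and the Ifitm1 ratios of the groups overlap.

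Zc3hav1, the zinc finger antiviral protein, changed by a small factor and with the least scatter. The gene (ENSMUSG00000029826.14, chromosome 6, 38305286 to 38354603, minus strand) was at 38.6, 37.7, 34.5, 35.4 and 38.3 FPKM in untreated samples 1 to 5. In PLG samples 1 to 5 it was at 62.3, 66.0, 64.0, 65.7 and 64.5 FPKM. Samples of a group lay close together, with a coefficient of variation of 4.95% in untreated and 2.32% in PLG samples, the lowest of the 8 members in both groups. The log2 fold change was 0.79 (SE 0.0445, limma adjusted p = 2.78e-09). GENCODE M21 lists 4 transcripts of the gene, and the table gives 1 value for all, so the long and short forms of the protein cannot be told apart.

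Ordered by FPKM, which is per length, the untreated members ran from Ifitm3 and Bst2 through Zc3hav1, Ifitm1 and Ifitm2 to Rsad2, Ifitm6 and Cmpk2. The ranges of Zc3hav1 and Ifitm1 overlapped, as did those of Ifitm1 and Ifitm2 and those of Ifitm6 and Cmpk2. With PLG the order was Ifitm3, Bst2, Rsad2, Zc3hav1, Ifitm1, Ifitm2, Cmpk2 and Ifitm6. Overlaps then remained between Zc3hav1 and Ifitm1 and between Ifitm1 and Ifitm2, and Rsad2 had moved above Zc3hav1. The coefficient of variation was lower in PLG than in untreated samples for the 7 members that rose and higher for Ifitm6 (40.6% in untreated and 46.4% in PLG samples), which was not tested.

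**Figure D3:**
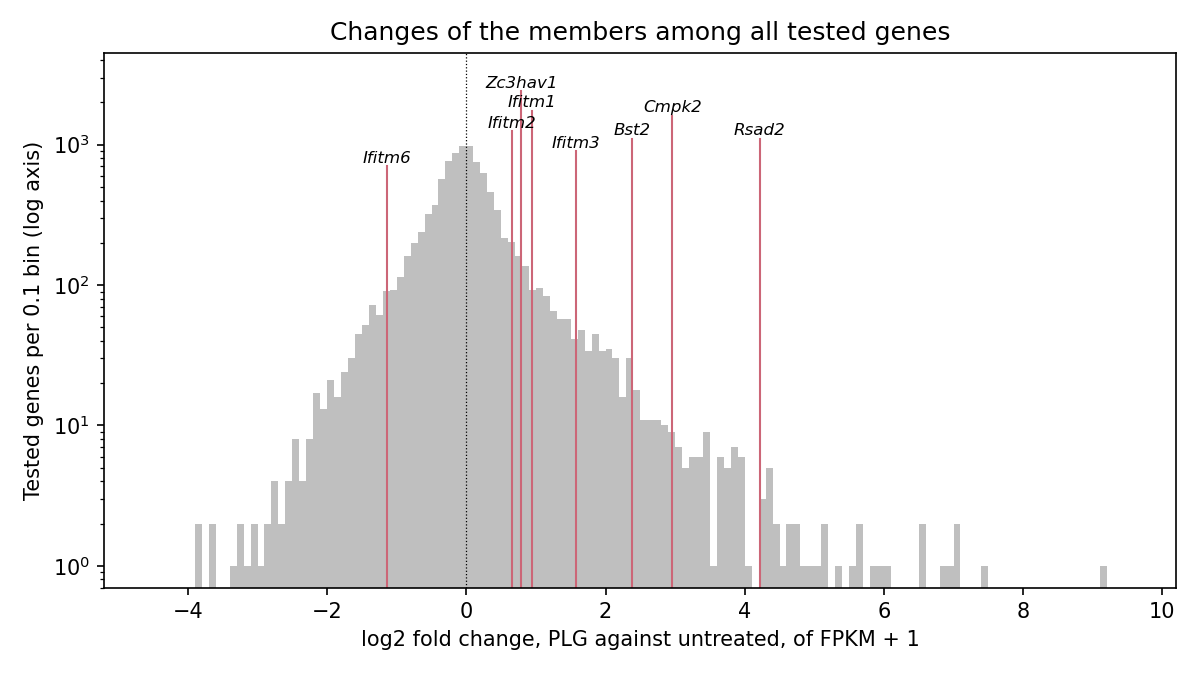
Histogram of the log2 fold changes of FPKM + 1, PLG against untreated, for all 9997 tested genes in bins of 0.1 with a log count axis; red lines mark the 8 members. Rsad2 at 4.22, Cmpk2 at 2.96 and Bst2 at 2.38 lie in the thin upper tail, the other 4 rising members lie nearer the bulk, and Ifitm6 lies at -1.13.

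Genes of interferon induction and signalling moved largely upward beside the members. Of 18 genes on this list 17 were tested, and 13 (76.5%) rose and 3 (17.65%) fell, against 29.1% and 31.3% of all tested genes. The median log2 fold change was 0.92, against -0.02 for all tested genes. Irf7, the factor that amplifies interferon production, went from 4.5 ± 1.26 to 158 ± 7.98 FPKM (log2 fold change 4.88). Stat2 went from 22.6 ± 0.983 to 65.9 ± 2.75 FPKM and Irf8, a factor of the myeloid lineage, from 28.1 ± 2.41 to 124 ± 6.15 FPKM. Jak1 was at 51.0 ± 2.47 FPKM in untreated and 52.0 ± 0.335 FPKM in PLG samples and did not pass (limma adjusted p = 0.564). The interferon beta gene, Ifnb1, was too low to be tested, at 0 reads in the untreated and 13 in the PLG samples together. The falling genes, named after their values were seen, were Irf2 (9.99 ± 1.05 to 8.45 ± 0.343 FPKM), Irf3 (9.84 ± 0.356 to 8.72 ± 0.715 FPKM) and the phosphatase gene Ptpn6 (78.8 ± 3.50 to 70.3 ± 5.80 FPKM). These falls were small: 0 of them passed with samples scaled to a common FPKM sum and 1 with median-of-ratios scaling. It was also 1 without untreated 1, PLG 1 or PLG 3. With a common sum without the 3 repeat-like gene models, 3 genes of the list fell, and with quantile normalization 4.

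Other restriction factors rose in larger part. Of 28 genes on the list 27 were tested, and 23 (85.2%) rose and 3 (11.1%) fell, with a median of 0.89. Of all tested genes 29.1% rose and 31.3% fell. Gbp2, a guanylate-binding protein, went from 45.4 ± 4.70 to 305 ± 13.2 FPKM, the exonuclease gene Isg20 from 1.16 ± 0.451 to 19.0 ± 1.32 FPKM and Trim30d from 9.12 ± 1.46 to 43.1 ± 1.95 FPKM. Hpse, which encodes heparanase, fell from 41.2 ± 3.51 to 7.95 ± 0.728 FPKM. The other two that fell, named after their values were seen, were the cytidine deaminase gene Apobec1 (30.5 ± 5.39 to 14.6 ± 1.44 FPKM) and Serinc3 (86.7 ± 3.68 to 66.8 ± 3.22 FPKM), whose product can lower the infectivity of retroviruses. Shfl was at 1.01 ± 0.534 FPKM in untreated and 1.38 ± 0.339 FPKM in PLG samples and did not pass (limma adjusted p = 0.21).

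The genes listed as partners of Zc3hav1, which include relatives of it, rose or did not pass. Of 16 genes 15 were tested, 9 (60%) rose and 0 fell, against 29.1% and 31.3% of all tested genes, with a median of 0.71. Rising genes included the related poly(ADP-ribose) polymerase genes Parp10 (8.59 ± 0.534 to 32.8 ± 1.68 FPKM), Parp12 (14.8 ± 0.754 to 45.8 ± 3.35 FPKM) and Parp14 (24.1 ± 2.35 to 78.6 ± 4.70 FPKM) and the endonuclease gene Zc3h12a (12.1 ± 1.40 to 43.1 ± 2.21 FPKM). Trim25, a ubiquitin ligase that works with Zc3hav1 and stands on the list of other restriction factors too, went from 37.1 ± 1.37 to 70.0 ± 2.60 FPKM, and Khnyn, a nuclease cofactor, from 6.25 ± 0.429 to 10.9 ± 0.510 FPKM; both were named after their values were seen. Dcp2, the decapping enzyme gene, was at 10.1 ± 0.955 FPKM in untreated and 10.6 ± 0.826 FPKM in PLG samples, and the helicase gene Dhx30 at 4.68 ± 0.319 and 4.91 ± 0.160 FPKM, and these did not pass (limma adjusted p = 0.533 and 0.479).

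Enzymes around the nucleotide chemistry of Rsad2 and Cmpk2 moved both ways. Of 20 genes 15 were tested, and 4 (26.7%) rose and 6 (40%) fell, shares near the 29.1% and 31.3% of all tested genes. The median was -0.14, and with a common FPKM sum 3 rose and 3 fell. With a common sum without the 3 repeat-like gene models, 3 rose and 7 fell. Nt5c3, a pyrimidine nucleotidase, went from 4.62 ± 0.918 to 12.6 ± 1.17 FPKM and thymidine kinase Tk1 from 4.05 ± 0.503 to 7.23 ± 0.392 FPKM. Ciao2b (7.68 ± 1.16 to 12.48 ± 2.52 FPKM) and Mms19 (5.46 ± 0.546 to 6.37 ± 0.425 FPKM), which serve in iron-sulfur cluster assembly, also rose; Mms19 held its call in 11 of 22 alternatives. Ciao2a, a more abundant gene of the same machinery, fell from 80.6 ± 8.51 to 65.6 ± 5.67 FPKM, and Ciao1, at 8.23 ± 1.87 and 9.88 ± 0.483 FPKM, did not pass (limma adjusted p = 0.0829). Ctps2, a CTP synthase, fell from 12.2 ± 1.23 to 8.07 ± 0.629 FPKM and the nucleoside diphosphate kinase gene Nme1 from 5.63 ± 0.770 to 2.76 ± 0.521 FPKM. The other falls were in the nucleotide pyrophosphatase gene Dctpp1 (6.03 ± 2.34 to 2.64 ± 0.445 FPKM), the thymidylate kinase gene Dtymk (3.11 ± 0.864 to 2.14 ± 0.361 FPKM) and Cmpk1, the cytosolic relative of Cmpk2 (25.5 ± 1.46 to 21.7 ± 3.11 FPKM). Dtymk held its call in 9 of the 21 alternatives that tested it and Cmpk1 in 14 of 22. The 3 Ciao genes, Mms19, Dctpp1, Dtymk and Cmpk1 were named after their values were seen. Dck and Uck2, nucleoside kinase genes at 21.6 ± 3.86 and 16.8 ± 2.01 FPKM in untreated and 19.3 ± 1.39 and 16.7 ± 1.2 FPKM in PLG samples, did not pass, although Dck passed as lower without untreated 4 (log2 fold change -0.23).

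Of 14 regulators and traffic partners of the IFITM and tetherin proteins 11 were tested, and 4 (36.4%) rose and 4 (36.4%) fell, shares near those of all tested genes. The median was -0.09, and with a common FPKM sum 4 rose and 2 fell. With a common sum without the 3 repeat-like gene models, 4 rose and 5 fell. The membrane scaffold gene Cav1 went from 5.05 ± 0.423 to 28.9 ± 1.42 FPKM and the kinase gene Fyn from 4.30 ± 0.618 to 14.5 ± 1.56 FPKM. Nedd4l (2.63 ± 0.272 to 3.40 ± 0.261 FPKM) and Vapa (23.0 ± 1.78 to 28.5 ± 4.45 FPKM) rose too. The membrane ubiquitin ligase gene March8 fell from 11.3 ± 0.570 to 7.20 ± 0.408 FPKM and Rab7, of late endosomes, from 213 ± 4.90 to 167 ± 8.44 FPKM. Setd7 (14.6 ± 1.26 to 12.2 ± 0.393 FPKM) and Zdhhc20 (14.5 ± 1.46 to 11.5 ± 1.1 FPKM) fell as well; these and Nedd4l and Vapa were named after their values were seen. Zmpste24, a protease that works with IFITM proteins, was at 8.65 ± 1.47 FPKM in untreated and 7.00 ± 1.1 FPKM in PLG samples and did not pass (limma adjusted p = 0.0533, and 0.0136 to 0.248 over 22 alternatives). Stx4a, at 43.3 ± 2.60 and 42.1 ± 1.41 FPKM, did not pass either. Of the further IFITM genes on the list, Ifitm5, Ifitm7 and Ifitm10 lay under the filter.

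Dynamin-like GTPases, the protein class of Mx1, changed by small factors. Of 10 genes 7 were tested, and 2 (28.6%) rose and 4 (57.1%) fell, against 29.1% and 31.3% of all tested genes, with a median of -0.15. The mitochondrial fission gene Dnm1l went from 14.7 ± 1.98 to 19.8 ± 0.857 FPKM and Atl3 from 16.6 ± 1.48 to 24.1 ± 1.77 FPKM. The mitochondrial fusion genes Mfn2 (15.4 ± 1.29 to 11.2 ± 1.17 FPKM) and Opa1 (11.6 ± 1.33 to 8.93 ± 0.530 FPKM) fell, as did Dnm2 (49.1 ± 1.56 to 44.2 ± 2.59 FPKM) and Mfn1 (5.43 ± 0.346 to 4.55 ± 0.584 FPKM), the last pair named after their values were seen; Mfn1 held its call in 13 of 22 alternatives. Atl2, at 2.60 ± 0.191 and 2.45 ± 0.162 FPKM, did not pass. With samples scaled to a common FPKM sum 2 rose and 1 fell, and without the 3 repeat-like gene models in that sum 2 rose and 4 fell.

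**Figure D4:**
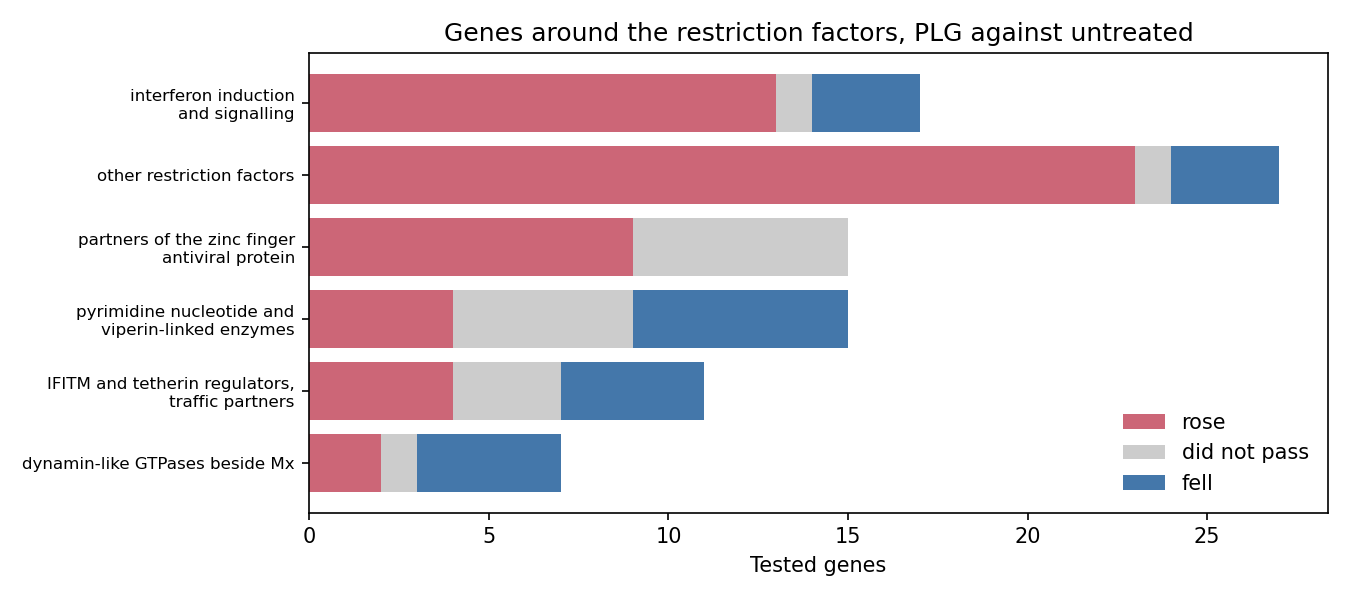
Tested genes of 6 lists around the restriction factors, divided into those that rose (red), those that did not pass (grey) and those that fell (blue) with PLG; the horizontal axis counts genes. Rises make up 13 of 17, 23 of 27 and 9 of 15 genes in the upper 3 lists. With a common FPKM sum these lists hold 12, 20 and 9 rises. The lower 3 lists hold 4, 4 and 2 rises and 6, 4 and 4 falls. Of all tested genes 29.1% rose and 31.3% fell. With a common FPKM sum the lower lists hold 3, 4 and 2 rises and 3, 2 and 1 falls. With a common sum without the 3 repeat-like gene models they hold 3, 4 and 2 rises and 7, 5 and 4 falls.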

How the data were processed

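RNA-seq was given for 10 samples. The authors deposited FPKM of protein-coding genes to 3 decimals, with gene lengths. The submitters' processing notes list STAR 2.7.3a, featureCounts 2.0.0, cutadapt 2.10, FastQC 0.11.9, DESeq2 1.24.0 and the build GRCm38.p6, without role or order. Whether counting used strand, or split reads between paralogs, is not given in the sources used here. FPKM times length falls on whole multiples of 1 step per sample, within 0.1 read for 100% of the low values checked (496 to 1561 per sample). This gave the reads, of which 1 on a gene of 1 kb is 0.0141 to 0.0313 FPKM.

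Values were analysed as log2(FPKM + 1), which understates changes of low genes. Genes at 1 FPKM or more in at least 5 of 10 samples were fitted with R 4.3.3 and limma 3.58.1 on treatment alone, with an intensity trend and Benjamini-Hochberg adjustment over 9997 genes at 0.05. The model was tested on simulated data in which few genes changed, unlike the broad change here, so no conclusion is drawn from that test. Ratios between members used two-sided exact permutation tests over all 252 assignments. A further ratio, of Mx1 to Mx2, was not analysed here. Ranks are by log2 fold change or mean FPKM. The members and lists were chosen with earlier results of these data known. Named genes were all members and, per list, the 4 tested genes of smallest p at most and, of those that did not pass, the most abundant 2; others are marked in the text, and 1 gene that this rule names is not reported here. Alternatives are given in the closing section.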

Additional observations from a re-analysis of the deposited data

Results flagged for a closer look

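Dixon's gap test was run on 32 groups of 5 samples, for the FPKM of the members and for their ratios, and chance flags about 1 in 20 groups. It marked 4 groups, and 3 of these share 1 value. Ifitm6 in PLG 3 was at 0.234 FPKM, from 8 reads, with the other PLG samples at 1.22 to 1.61 FPKM. The same sample gave the lowest PLG ratio of Ifitm6 to Ifitm3, which was 2.913e-04 in plain FPKM and -9.35 as a difference of log2(FPKM + 1); the added 1 FPKM makes the second measure smaller in size for a gene this low. The ratio of Rsad2 to Cmpk2 in untreated 2 was 4.30, where Cmpk2 was at 1.59 FPKM from 214 reads. Why these samples differ was not tested.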

How the results depend on the processing

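Over 22 alternatives of the fit (11 chosen with the design, 10 that leave out 1 sample each and 1 added after seeing the data), 7 members rose in each, and Ifitm6 fell in the 21 that could test it. With a filter of 5 FPKM it was not tested, and 0 members fell. Its log2 fold change ran from -1.73 with a pseudocount of 0.1 FPKM to -0.50 with one of 5 FPKM. Rsad2 ran from 3.68 to 4.40, Cmpk2 from 2.1 to 3.34, Bst2 from 2.13 to 2.45, Ifitm3 from 1.5 to 1.63, Ifitm1 from 0.80 to 1.02, Zc3hav1 from 0.63 to 0.84 and Ifitm2 from 0.52 to 0.76. Genes called over the whole table were 2185 to 3360 higher and 2133 to 3650 lower. Rises among the other restriction factors numbered 19 with quantile normalization and 20 with a common FPKM sum, against 23. Those in the interferon list numbered 12 to 13 over the 22 alternatives, and those among partners of Zc3hav1 9 to 10. Falls in the interferon list numbered 0 with a common FPKM sum, 1 with median-of-ratios scaling, 1 with a replicate block and 1 to 3 with 1 sample left out, against 3. Falls among the nucleotide enzymes numbered 3 with a filter of 5 FPKM and 3 with a common sum, against 6. With a common sum, those among IFITM and tetherin regulators numbered 2, against 4, and those among dynamin-like GTPases 1, against 4. Without the 3 repeat-like gene models, the common sum gave 3 falls in the interferon list. The nucleotide enzymes then held 7, the regulators 5 and the GTPases 4. With quantile normalization these 4 lists held 4, 7, 6 and 4 falls. With quantile normalization Jak1 passed as lower (-0.13), against 0.03 without a call, and so did Stx4a; the cause was not tested. With 1 sample left out, the shift of the Ifitm1 to Ifitm3 ratio was -0.73 to -0.53.

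Same-numbered samples did not deviate together (correlations of -0.121 to 0.0988 over 5 numbers), so the numbers were not used as pairs. With the replicate block, 2797 genes were higher and 2988 lower, and all 8 members kept their calls. An exact permutation test by sign flips of the 5 differences cannot go below p = 0.0625, the value of all 4 ratio shifts (1.26 for Rsad2 to Cmpk2, -0.63, -0.91 and -2.70 for Ifitm1, Ifitm2 and Ifitm6 to Ifitm3). Depth limits Ifitm6 most, at 8 to 176 reads per sample.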
